A study of Mus musculus with 2 samples.

Results

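Effector CD8 T cells were 56 of 28962 barcodes in a single-cell RNA sequencing study of mouse spleen after skin grafting, 45 of 11185 in the ALLO library and 11 of 17777 in the SYN library. They were chosen by their UMIs, each of which stands for 1 captured RNA molecule. A barcode was a member with at least 1000 UMIs, at most 10% of them mitochondrial, at least 1 UMI over Cd3d, Cd3e and Cd3g, which encode the signalling chains of the T cell receptor complex, and at least 1 of the CD8 co-receptor gene Cd8b1. It had no UMI of Cd4 or of the B cell gene Cd79a. It also had at least 2 UMIs summed over Gzma, Klrg1, S1pr5, Cx3cr1 and Gzmb, the effector sum. The members were compared with CD8 T cells that passed the same limits with an effector sum of 0, 502 in ALLO and 531 in SYN, called sum-0 cells here. They were also compared with NK cells, 173 in ALLO and 270 in SYN, which had at least 2 UMIs over Ncr1 and Klrb1c and none of the 3 Cd3 genes.

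Recipients in both groups were wildtype C57BL/6 mice. For ALLO they were grafted at weeks 0 and 5 with skin of the transgenic strain C57BL/6-Tg(HLAA2.1)1Enge/J, which carries a human HLA gene. For SYN they were grafted on the same schedule with skin of wild-type C57BL/6 animals, so that donor and recipient matched. Spleens were taken 4 weeks after the second graft, and the cells were frozen, thawed and passed over columns that remove dead cells before droplet capture with a 5′ kit. The sources used here do not give the animals' ages or the number of spleens behind a library. Each group is 1 library, so no difference between ALLO and SYN has a replicate check and no p-value is given. All intervals are at 95% and cover counting error only.

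Naive CD8 T cells that meet their antigen divide and become effectors, which kill other cells with perforin and granzymes from their granules or with Fas ligand, and which release interferon gamma and chemokines. Effectors lose the receptors that keep naive cells in lymphoid tissue and gain others for the blood and inflamed tissue. After the response most of them die, and the cells that stay range from long-lived memory precursors, marked by the interleukin 7 receptor, to terminal effectors, marked by KLRG1 and CX3CR1. NK cells share the granules and many of the receptors but have no T cell receptor.

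The members held 170842 UMIs in ALLO, with a median of 3049 per cell (1096 to 12704), and 58054 in SYN, with a median of 4192 (2093 to 11969). Sum-0 cells were deeper in ALLO than the members, at a median of 5041 UMIs, and had a median of 4874 in SYN. NK cells had medians of 3252 and 3164. The libraries shared 264 barcode sequences, 1 of which belonged to an ALLO member and none to a SYN member. Levels below are UMIs of a gene summed over the cells of a class, per 1000000 UMIs of that class (CPM). A gene was called higher or lower when the levels lay at least 2-fold apart with at least 20 UMIs over both sides, and within libraries when that held in the same direction in both. Free RNA in a droplet can add UMIs of genes that the cell does not express. The share of B cells with the same UMIs is therefore given beside the shares of cells by effector sum. It is not given for other genes.

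The label of the class was checked on genes that the rule did not use. Cd8a, which encodes the other CD8 chain, was detected in 39 of 45 ALLO and 11 of 11 SYN members, and in 2 of 173 and 2 of 270 NK cells. Ccl5, a chemokine gene of memory and effector CD8 T cells and of NK cells, was detected in 45 of 45 and 9 of 11 members. The granule membrane protein gene Nkg7 was detected in 45 and 10 of them. Sum-0 cells also held UMIs of Ccl5 and Nkg7, at the lower levels given below, so detection alone does not set members apart. The defining NK cell gene Ncr1 had no UMI in ALLO members and 6 UMIs in 2 of the SYN members. The NK adaptor genes Tyrobp and Fcer1g were detected in 1 ALLO member and in the same 2 SYN members. Klrb1c, the other gene of the NK gate, went the other way. It was detected in 8 of 45 ALLO and 2 of 11 SYN members, against 9 of 502 and 12 of 531 sum-0 cells. Members were left out below by Ncr1, Tyrobp or Fcer1g, so those with Klrb1c alone stayed in. Of 8 gamma delta T cell markers, Trdc among them, 7 had no UMI in ALLO members and 6 none in SYN members. Their summed level was 35.1 and 224 CPM in members, against 44.01 and 31.5 CPM in sum-0 cells. Trgv2, a gamma chain segment, gave all 6 of these UMIs in ALLO, from 2 cells, and 11 of 13 in SYN, from 1 cell, and it was called higher in members than in sum-0 cells. The myeloid genes Lyz2 and Csf1r, the neutrophil gene S100a8 and the haemoglobin gene Hbb-bs had no UMI in any member. Foxp3 was detected in 1 SYN member. The 8 CD4 and regulatory T cell markers, Foxp3 among them, summed to 58.5 CPM in ALLO and 465 CPM in SYN members. Sum-0 cells had 76.7 and 98.1 CPM. The SYN level came from 27 UMIs in 4 members, with 17 in 1 cell. The SYN member with the most UMIs, 11969, had 17 UMIs of Gzmb, 8 of Cd8a and none of Ccl5, Zeb2 or the other 4 genes of the rule. This cell and the 2 SYN members with Ncr1 UMIs weigh on every SYN level. Values without them are given beside key results of the comparison between libraries only. SYN values against sum-0 cells and NK cells include them.

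The genes that chose the members are described here without a test. Gzma, which encodes the protease granzyme A, supplied most of the UMIs, with 843 in 35 ALLO members, or 4934 CPM, and 190 in 6 SYN members, or 3273 CPM. The most in 1 cell were 142 of these in ALLO and 102 in SYN. Gzmb, whose product granzyme B activates caspases in the target cell, had 90 UMIs in 25 ALLO members and 28 in 6 SYN members, at 527 and 482 CPM. Of these, 24 in ALLO and 17 in SYN lay in 1 cell. Klrg1, which encodes an inhibitory lectin receptor of terminal effectors, had 79 UMIs in 22 ALLO members and 8 in 4 SYN members, at 462 and 138 CPM. S1pr5, a receptor gene for the lipid that draws cells into the blood, had 71 UMIs in 37 ALLO members and 12 in 6 SYN members, at 416 and 207 CPM. Cx3cr1, the receptor gene for the chemokine fractalkine, had 56 UMIs in 25 ALLO members and 11 in 5 SYN members, at 328 and 189 CPM. All 5 genes were detected together in 10 ALLO members and 1 SYN member, and only 1 of them in 5 ALLO and 3 SYN members. The effector sum of the members had a median of 14 in ALLO (2 to 153) and 10 in SYN (2 to 106), and it was over 10 in 26 ALLO and 5 SYN members. Just inside the limit, 5 ALLO members and 1 SYN member had a sum of 2. Just outside it, 11 ALLO and 12 SYN cells had a sum of 1 and belong to neither class.

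**Figure D1:**
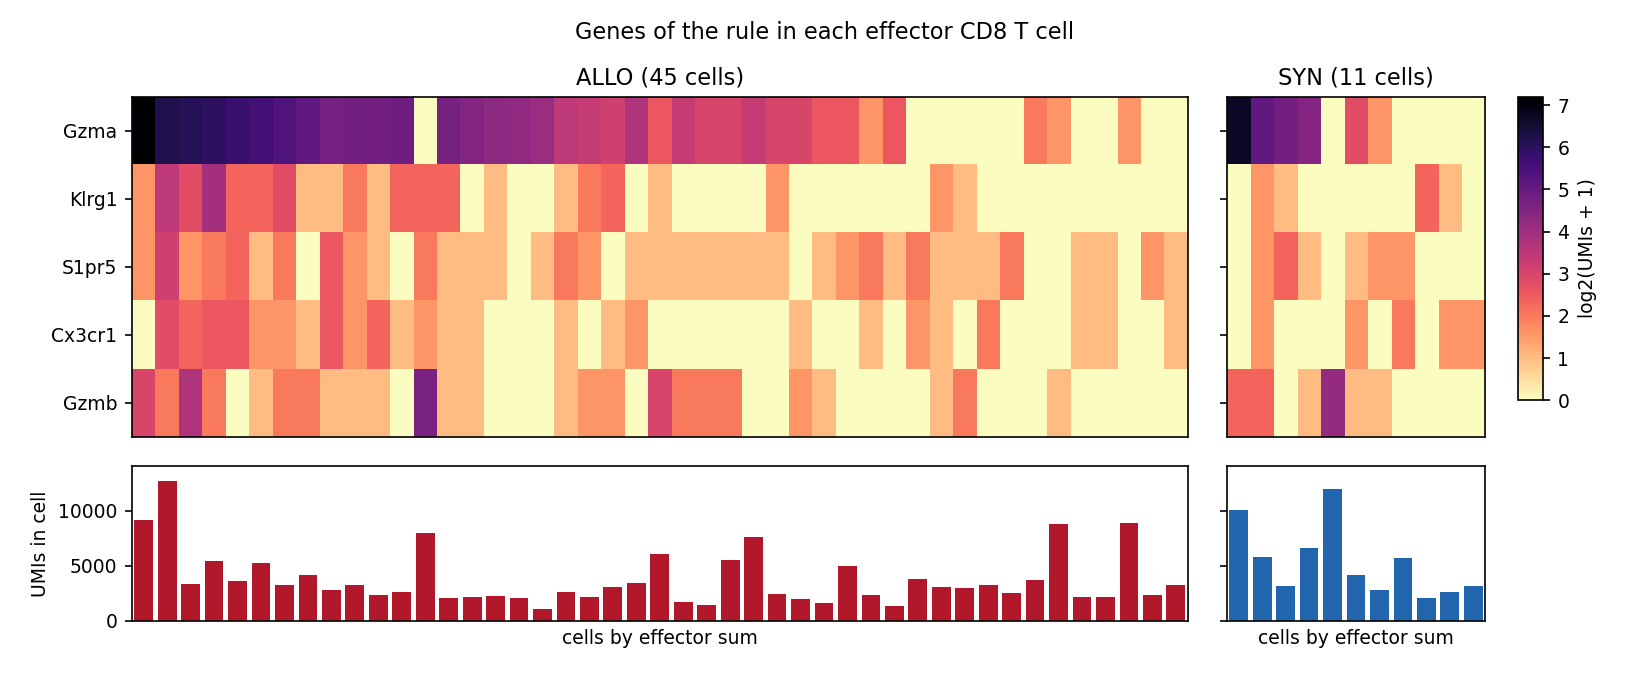
UMIs of the 5 genes of the rule in each of the 45 ALLO members (left) and 11 SYN members (right), as log2(UMIs + 1), with the total UMIs of each cell below. Gzma is high in most cells at the left of each panel, and the SYN cell with 11969 UMIs has Gzmb alone among the 5 genes.

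Both granzyme genes lie on the minus strand of GRCm38, Gzma at chr13:113093825-113100981 and Gzmb at chr14:56258838-56262260 in the GENCODE annotation. The 250 bases before their RefSeq transcription starts (RefSeq, GRCm38.p6), at chr13:113100982-113101231 and chr14:56262335-56262584, are shown because these 2 genes gave most of the UMIs that defined the class. Each is written 5′ to 3′ on the strand of the gene. Capitals mark the core motif of RUNX factors (TGTGGT, or ACCACA on the other strand) and an E-box (CACCTG or CAGGTG), both searched on either strand.
Gzma promoter: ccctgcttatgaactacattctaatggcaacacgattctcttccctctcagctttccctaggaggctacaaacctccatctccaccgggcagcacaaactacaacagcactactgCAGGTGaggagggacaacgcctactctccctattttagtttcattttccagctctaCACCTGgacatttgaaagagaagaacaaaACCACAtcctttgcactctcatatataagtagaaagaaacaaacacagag
Gzmb promoter: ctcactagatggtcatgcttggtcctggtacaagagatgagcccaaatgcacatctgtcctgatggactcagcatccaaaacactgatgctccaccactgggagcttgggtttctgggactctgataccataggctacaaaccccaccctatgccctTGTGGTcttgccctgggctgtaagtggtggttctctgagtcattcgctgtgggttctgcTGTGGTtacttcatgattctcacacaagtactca
Gzma held 1 RUNX core beginning 50 bases before the start and 2 E-boxes at 79 and 135 bases, and Gzmb held 2 RUNX cores at 93 and 34 bases and no E-box. The AP-1 motif TGANTCA was found in Gzmb alone of the 2, at 58 bases, and the T-box motif GGTGTNA in neither. Of 32851 such windows in the genome, 14.05% held the RUNX core, 17.2% the E-box, 6.75% the AP-1 motif and 8.61% the T-box motif on either strand. A match describes the letters only, and nothing here measured binding. Runx3, which encodes the RUNX factor of the CD8 lineage, was at 176 and 68.9 CPM in ALLO and SYN members, 99.3 and 107 CPM in sum-0 cells and 164 and 159 CPM in NK cells.

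Members made up a larger share of CD8 T cells in ALLO. They were 8.06% (5.94 to 10.6%) of 558 ALLO CD8 T cells and 1.99% (0.995 to 3.52%) of 554 SYN CD8 T cells, a ratio of 4.06 (2.07 to 8.71). The class was proposed with this difference known, so the ratio is a description of these 2 libraries. With at least 1 UMI in the effector sum the shares were 10.04% and 4.15%, and with at least 3 they were 7.17% and 1.81%. In B cells, which are not known for these genes, an effector sum of at least 2 was found in 0.687% (0.507 to 0.910%) of 6984 ALLO cells and 1.26% (1.01 to 1.55%) of 6830 SYN cells, at median depths of 3177.5 and 3001.5 UMIs. The ALLO share lay above the B cell share of its library, while the interval of the SYN share held it. B cells were gated by Cd79a without a Cd3 UMI, so the 41 ALLO and 56 SYN NK cells with Cd79a UMIs are among them. Their part in the B cell shares was not tested, so these shares are not a measure of free RNA alone. With every cell thinned to 1000 UMIs, which left out none because that is the depth limit, 6.27% (4.41 to 8.62%) and 1.26% (0.509 to 2.59%) of the same CD8 T cells had a sum of at least 2, and 0.515% and 0.835% of B cells. Among CD4 T cells the unthinned shares were 2.27% (1.21 to 3.85%) and 1.498% (0.800 to 2.55%), with overlapping intervals. Thinned, the CD4 shares were 1.75% (0.840 to 3.19%) from 10 cells and 0.230% (0.0279 to 0.830%) from 2 cells, whose intervals do not overlap, a ratio of 7.57 (1.61 to 71.1) against 1.51 (0.647 to 3.55) unthinned. CD8 T cells of the gate were 5.70% of 9792 ALLO and 4.95% of 11198 SYN barcodes within the depth and mitochondrial limits, so the members were 0.460% and 0.0982% of those barcodes.

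**Figure D2:**
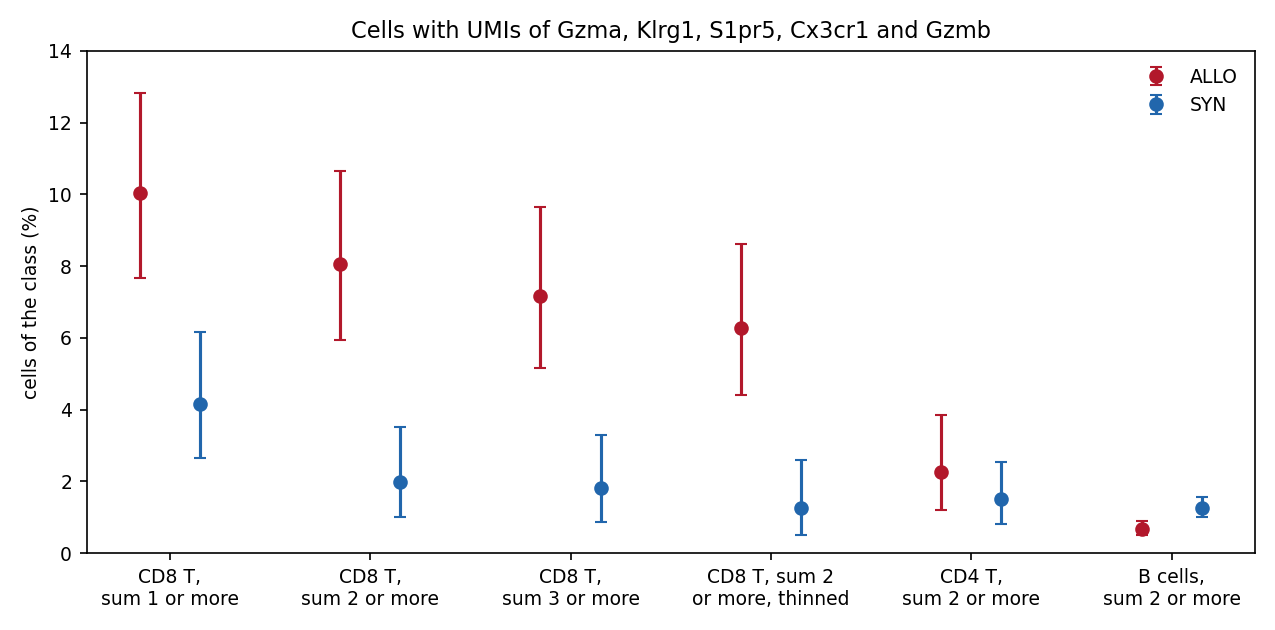
Share of cells with the stated effector sum in CD8 T cells, CD4 T cells and B cells of ALLO (red, left of each pair) and SYN (blue), with 95% Clopper-Pearson intervals for counting error. The ALLO and SYN intervals do not overlap in the 4 CD8 T cell pairs. The SYN interval at a sum of at least 2 holds the SYN share of B cells, which include NK cells with Cd79a UMIs.

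The next comparison, members against sum-0 cells within each library, is the one the rule was built on, so its values describe the class and are no evidence for it. Of 7849 genes with enough UMIs in both libraries, 340 (4.33%) were at least 2-fold higher in members in both libraries and 66 (0.841%) at least 2-fold lower. Ribosomal protein genes took 20.6% of ALLO and 25.96% of SYN member UMIs, against 38.9% and 37.4% in sum-0 cells and 19.1% and 19.5% in NK cells. Scaled without ribosomal, mitochondrial and receptor segment genes, 131 genes were higher and 140 lower, and the median log2 ratio of all genes moved to −0.13 in ALLO and −0.17 in SYN, against 0.27 and 0.09 on all UMIs. Counts of lists below are read beside that shift.

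Among the granule and killing genes, 6 of 16 were called higher in members and 0 lower, with a median log2 ratio of 0.81 in ALLO and 0.56 in SYN. Prf1, which encodes the pore-forming perforin, was at 140.5 and 276 CPM in members and 44.01 and 46.1 CPM in sum-0 cells, 3.19-fold higher (1.97 to 4.98) in ALLO and 5.98-fold (3.32 to 10.1) in SYN. The SYN members with Ncr1 UMIs weigh on this SYN level. Without members that held Ncr1, Tyrobp or Fcer1g the ALLO level of Prf1 was 0.96 of the SYN level, against 0.51 with them. Fasl, the gene of Fas ligand, was at 187 and 68.9 CPM against 13.5 and 14.98 CPM, and Nkg7 at 3184 and 2049.8 CPM against 847 and 817 CPM. Gzmk, a granzyme gene more often linked to memory CD8 T cells than Gzmb is, was 60.8-fold higher (30.8 to 131) in ALLO and 25.1-fold (11.3 to 52.9) in SYN. It had 43 UMIs in 21 of 45 ALLO members and 12 in 4 of 11 SYN members. Of the cytokine and chemokine genes, 3 of 7 were higher and 1 lower. Ccl5 was at 26481 and 19964 CPM in members against 2063 and 1764 CPM, 12.8-fold higher (12.3 to 13.4) in ALLO and 11.3-fold (10.6 to 12.1) in SYN. Ifng, the interferon gamma gene, was 7.49-fold higher (4.503 to 12.2) in ALLO and 6.31-fold (2.42 to 13.97) in SYN, and Ccl4, a chemokine gene, 9.75-fold higher (6.87 to 13.7) in ALLO and 5.02-fold (1.77 to 11.6) in SYN. The member of this list that was lower was Ltb, which encodes lymphotoxin beta, at 240.0 and 241 CPM against 630.5 and 738 CPM.

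Of the transcription factor genes of effector cells, 6 of 14 were higher in members and 0 lower, with a median log2 ratio of 1.03 in ALLO and 1.64 in SYN. Zeb2, whose product acts with T-bet in terminal differentiation, had the largest ALLO ratio among named genes outside the rule, with 77 UMIs in 30 ALLO members and 18 in 7 SYN members, against 5 UMIs in 502 and 12 in 531 sum-0 cells. Its levels were 451 and 310.1 CPM against 1.88 and 4.49 CPM, 239.6-fold higher (98.4 to 759) in ALLO and 68.99-fold (31.4 to 157) in SYN. Tbx21, which encodes T-bet, was 6.08-fold higher (4.13 to 8.79) in ALLO and 4.31-fold (1.91 to 8.53) in SYN, Id2, an inhibitor gene of E proteins, 7.82-fold higher (6.02 to 10.1) in ALLO and 3.79-fold (2.13 to 6.32) in SYN, and Bhlhe40 31.1-fold higher (17.2 to 58.2) in ALLO and 10.95-fold (3.23 to 29.8) in SYN. Hopx and Ikzf3 completed the set, at 351 and 534 CPM against 164 and 155 CPM and at 339 and 327 CPM against 109 and 116 CPM. Eomes, the other T-box gene of CD8 T cells, was at 76.1 and 155 CPM in members and 68.1 and 70.03 CPM in sum-0 cells and was not called. The deepest SYN member held 7 Eomes UMIs, so the SYN level of Eomes leans on that cell. Of the naive and memory factors, 2 of 14 were lower in members, Bach2 and Id3, but 6 were when scaled without ribosomal, mitochondrial and segment genes, and 4 by the mean of each cell's own CPM. Tcf7, which encodes TCF1, the factor of naive and stem-like T cells, was at 228 and 224 CPM against 441 and 492 CPM, and Lef1 at 111 and 224 CPM against 372 and 407 CPM, neither of them called on all UMIs.

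S100, annexin and galectin genes encode calcium- and sugar-binding proteins high in antigen-experienced T cells. Their list, which also held Vim and Ahnak, had 9 of 14 genes higher and 0 lower, with a median log2 ratio of 2.01 in ALLO and 1.39 in SYN. Lgals1, the galectin 1 gene, was at 3266 and 1878 CPM against 183 and 224 CPM, S100a6 at 1381 and 999 CPM against 135 and 147 CPM, and Lgals3 at 222 and 172 CPM against 3.39 and 7.49 CPM. Of these 14 genes 6 were higher when scaled without ribosomal, mitochondrial and segment genes, and 12 by the mean of each cell's own CPM. Vim, the vimentin gene, was among the 9 called on all UMIs, but its SYN log2 ratio turned to −0.24 without members that held Mki67 or Top2a. Of the killer lectin and NK receptor genes, 6 of 13 were higher in members, with a median log2 ratio of 0.99 in ALLO and 1.28 in SYN. Klrk1, which encodes the activating receptor NKG2D, was 15.6-fold higher (10.8 to 22.5) in ALLO and 3.79-fold (1.48 to 8.15) in SYN, and Klrc1, the gene of the inhibitory receptor NKG2A, 14.5-fold higher (10.4 to 20.4) in ALLO and 6.97-fold (3.19 to 13.6) in SYN. The NK1.1 gene Klrb1c was detected in 8 ALLO and 2 SYN members, at 64.4 and 86.1 CPM against 5.27 and 7.49 CPM. Integrin alpha 4, encoded by Itga4, was among the 3 of 17 migration and adhesion genes that were higher, at 673 and 551 CPM against 136 and 136 CPM. Of 22 cytokine receptor and signal genes 2 were higher and 2, Il6ra and Il4ra, lower. The higher ones encode chains of the interleukin 18 and interleukin 10 receptors. Il18rap was 9.296-fold higher (6.31 to 13.6) in ALLO and 5.91-fold (2.596 to 11.9) in SYN, and Il10ra 5.902-fold higher (3.44 to 9.79) in ALLO and 4.599-fold (1.78 to 9.99) in SYN.

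Genes of naive cells and of homing to lymphoid tissue lay the other way, with 5 of 15 lower in members, 0 higher and a median log2 ratio of −1.30 in ALLO and −1.39 in SYN. Actn1 and Dapl1, genes high in naive CD8 T cells, were 5.71-fold lower (2.61 to 15.6) in ALLO and 9.46-fold (1.69 to 374) in SYN, and 16.2-fold lower (5.53 to 78.8) in ALLO and 2.62-fold (1.27 to 6.53) in SYN. With cells thinned before the gate the SYN log2 ratio of Dapl1 was 0.99 (−2.07 to 2.87), so its direction turned. Scaled without ribosomal, mitochondrial and segment genes, or by the mean of each cell's own CPM, 8 of the 15 genes were lower. Ccr7, the receptor gene for the chemokines of the T cell zone, was 5.41-fold lower (2.73 to 12.6) in ALLO and 1.13-fold (0.668 to 2.07) in SYN, so it was not called. Nearly all of its SYN UMIs came from few cells, 14 UMIs in 3 of 11 members, 9 of them in the deepest one. Il7r, the gene of the interleukin 7 receptor, was at 275 and 68.9 CPM against 495 and 638 CPM, below 2-fold in ALLO. None of 19 T cell receptor signalling genes and none of 15 MHC class I and peptide loading genes was called in either direction, with median log2 ratios of 0.47 in ALLO and 0.17 in SYN, and of 0.40 in ALLO and 0.35 in SYN.

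**Figure D3:**
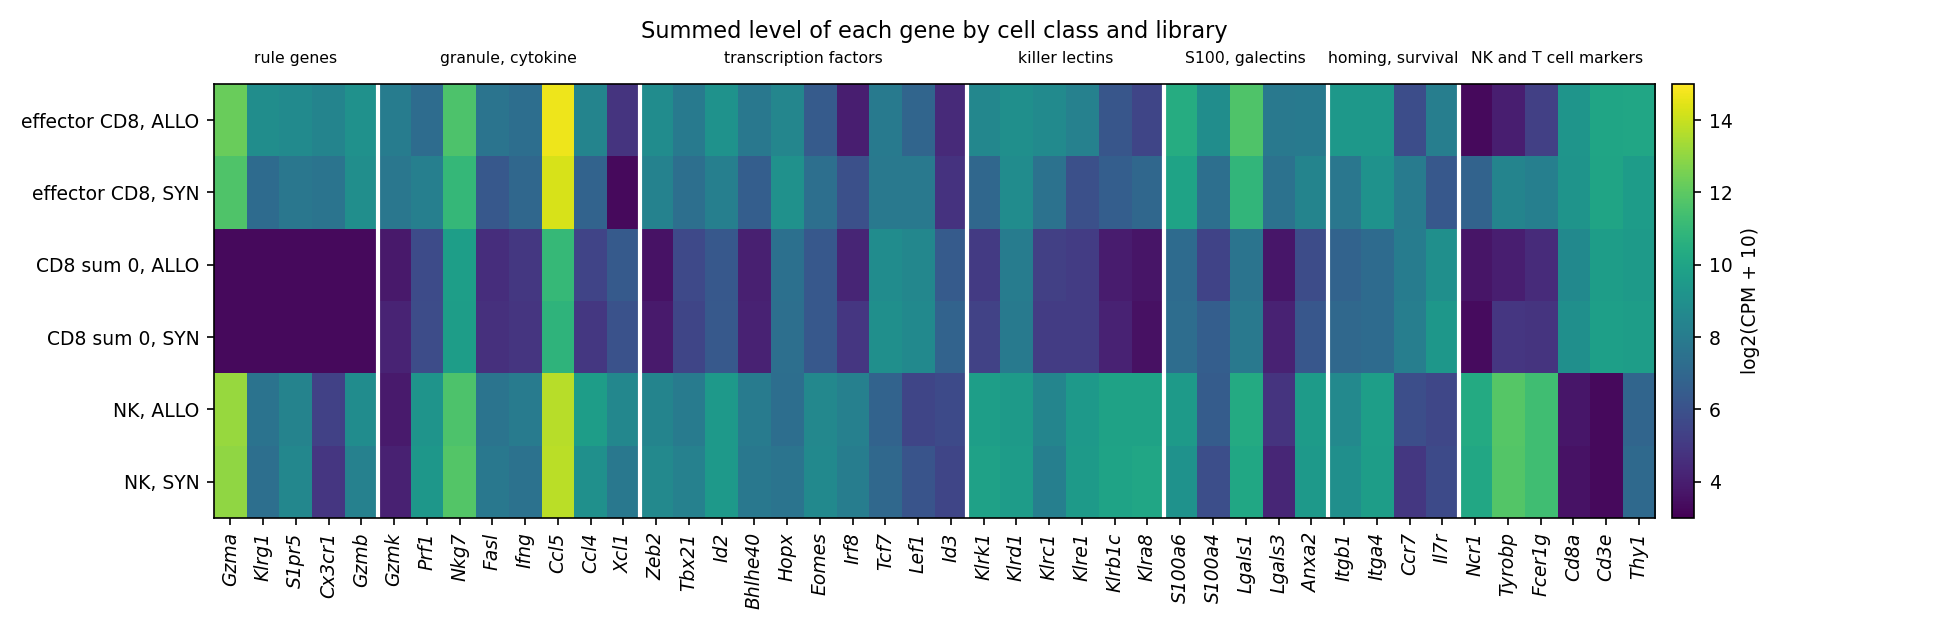
Level of named genes, as log2(CPM + 10), in members, sum-0 CD8 T cells and NK cells of ALLO (upper row of each pair) and SYN. Sum-0 cells are at 0 for the genes of the rule by construction; members and NK cells are both high for Gzma, Nkg7, Ccl5 and Zeb2, and Ncr1 and Tyrobp are high in NK cells.

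Set against NK cells of the same library, 64 of 5353 genes (1.2%) were higher in members in both libraries and 268 (5.01%) lower. The NK cells were gated by the absence of Cd3 UMIs and the members by Cd3 and Cd8b1, so those genes are no result here. Some B cell RNA lay in the NK class: Cd79a, which the members lack by rule, was detected in 41 of 173 ALLO and 56 of 270 SYN NK cells, and 14 of 17 B cell markers were lower in members. Without those NK cells 54 genes were higher and 223 lower. The part of B cell RNA in other genes was not tested.

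Members and NK cells shared several effector genes, some of them within 2-fold and others further apart. Nkg7 was at 3184 and 2049.8 CPM in members and 3227 and 3493 CPM in NK cells, Tbx21 at 240.0 and 155 CPM and 247 and 299 CPM, and Zeb2 at 451 and 310.1 CPM and 332 and 387 CPM, none of them called. Of 15 granule and killing genes 3 were lower in members and 0 higher, and the largest of these gaps in ALLO was that of Prf1, at 140.5 and 276 CPM in members against 579 and 643 CPM in NK cells, 4.12-fold lower (2.73 to 6.52) in ALLO and 2.33-fold (1.42 to 4.11) in SYN. The chemokine genes Ccl3, Ccl4 and Xcl1 were lower in members, with Xcl1 at 3 UMIs in ALLO members and 0 in SYN members, against 231 and 206 in NK cells. Ccl5 lay the other way, at 26481 and 19964 CPM against 13549 and 13711 CPM, 1.95-fold higher (1.88 to 2.03) in ALLO and 1.46-fold (1.37 to 1.55) in SYN, which is short of a call. Gzmk was 52.3-fold higher (16.7 to 264) in ALLO and 28.5-fold (10.3 to 85.4) in SYN, with 3 UMIs in 173 and 7 in 270 NK cells.

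Most NK markers and killer receptor genes were lower in members. Ncr1 and Klrb1c chose the NK cells and are no result. Without them, 8 of 9 NK cell markers were lower, and 14 of 19 killer lectin and NK receptor genes were, with 1 higher. Tyrobp was at 5.85 and 327 CPM against 3599 and 3478 CPM, and Klra8, which encodes the activating receptor Ly49H, at 35.1 and 121 CPM against 941 and 1088 CPM. Klrk1 was at 363 and 121 CPM against 847 and 937 CPM, while Klrc1 was at 416 and 172 CPM against 343 and 278 CPM and was not called. Among transcription factor genes, Eomes was 4.91-fold lower (2.82 to 9.36) in ALLO and 2.65-fold (1.38 to 5.83) in SYN, and Irf8 48.8-fold lower (8.64 to 1937) in ALLO and 5.14-fold (1.74 to 25.1) in SYN, though with cells thinned before the gate the SYN log2 ratio of Irf8 was 1.41 (−1.68 to 3.34), so its direction turned. The SYN ratio of Eomes includes the deepest member, which held 7 of its UMIs. Of the 13 effector factor genes Hopx alone was higher, 2.35-fold higher (1.67 to 3.29) in ALLO and 2.91-fold (1.92 to 4.28) in SYN, and of 11 naive and memory factor genes Lef1 alone was. Of 16 T cell receptor signalling genes 5 were higher and 0 lower, among them Lat, the adaptor gene downstream of the receptor, at 656 and 741 CPM against 112 and 82.9 CPM. Outside the lists, Thy1, Ms4a6b and the nuclear receptor gene Rora were higher in members, Rora 10.9-fold higher (4.48 to 30.5) in ALLO and 10.2-fold (3.67 to 26.6) in SYN. S100a4 was 5.69-fold higher (3.94 to 8.29) in ALLO and 3.12-fold (1.34 to 6.42) in SYN, and Il2rb, the shared receptor chain gene for interleukins 2 and 15, 3.099-fold lower (2.28 to 4.303) in ALLO and 2.14-fold (1.43 to 3.37) in SYN.

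Between the libraries, several of the genes that set the class apart lay within 2-fold in ALLO and SYN members, and others were called. Of the 5 genes of the rule, Klrg1 was 3.36-fold higher (1.62 to 8.04) in ALLO members and S1pr5 2.01-fold (1.08 to 4.07). Gzma, Cx3cr1 and Gzmb lay within 2-fold, at ratios of 1.51, 1.73 and 1.09. These 5 genes chose the members, so their ratios are a description only. Of 1792 genes with at least 20 UMIs, 235 (13.1%) were at least 2-fold higher in ALLO members and 94 (5.25%) lower, and scaled without ribosomal, mitochondrial and segment genes the split was 191 to 121. For comparison, sum-0 cells, with far more UMIs behind them, had 90 of 9308 genes (0.967%) higher in ALLO and 159 (1.71%) lower. Zeb2 had 451 and 310.1 CPM in ALLO and SYN members, a ratio of 1.45 (0.862 to 2.58), and Tbx21 a ratio of 1.55 (0.741 to 3.62). Tbx21 was 2.24-fold higher without members that held Ncr1, Tyrobp or Fcer1g. Without members that held Mki67 or Top2a it was at a ratio of 1. Other genes of that list were called: of 9 effector transcription factor genes tested, 2 were higher in ALLO, Runx3 and Bhlhe40, and 1 lower, Eomes. These counts stand beside 13.1% and 5.25% of all genes. Ccl5, with 4524 and 1159 UMIs, had a ratio of 1.33 (1.24 to 1.42). Prf1 had 24 UMIs in ALLO and 16 in SYN members, a ratio of 0.5097 (0.2598 to 1.03), and was 1.04-fold lower without the members that held Ncr1, Tyrobp or Fcer1g. It was past 2-fold without the deepest cell of each library, at 2.29-fold lower, and without members that held Mki67 or Top2a, at 2.07-fold lower. These intervals hold differences of up to 2-fold or more for the genes with few UMIs, and do not show equal levels.

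Ly6c2, which encodes the surface protein Ly6C of memory and effector T cells, had the highest lower bound of the ratio among named genes detected in over 20 ALLO members. It had 441 UMIs in 39 of 45 ALLO members and 52 in 7 of 11 SYN members, or 2581 and 896 CPM, 2.88-fold higher (2.16 to 3.92). In sum-0 cells it was at 1399 and 1059.9 CPM, a ratio of 1.32 (1.26 to 1.39). Without the deepest cell of each library Ly6c2 was 2.31-fold higher, and without members that held Mki67 or Top2a 2.14-fold higher. It was 2.95-fold higher without members that held Ncr1, Tyrobp or Fcer1g. Of the 7 killer lectin and NK receptor genes tested, 4 were higher in ALLO and 1 lower, beside 13.1% and 5.25% of all genes, with a median log2 ratio of 1.27 beside 0.03 over all genes. Klrk1 had 62 UMIs in 25 ALLO members and 7 in 2 SYN members, 3.01-fold higher (1.38 to 7.795). It was 5.41-fold higher without members that held Ncr1, Tyrobp or Fcer1g. Klre1, which pairs with other killer lectin receptors, had 51 UMIs in 18 members and 3 in 2, 5.78-fold higher (1.87 to 28.9), and Klrc1 had 71 in 23 and 10 in 4, 2.41-fold higher (1.24 to 5.25). The call of Klrc1 was lost without members that held Ncr1, Tyrobp or Fcer1g, at 1.96-fold higher. It was also lost without members that held Mki67 or Top2a, at 1.76-fold higher. Crtam, an adhesion receptor gene of activated T cells, was the 1 lower, with 10 UMIs in each library, 2.94-fold lower (1.099 to 7.88), and too few to be compared once members were left out.

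The list counts that follow stand beside 13.1% of all genes higher and 5.25% lower. Of 10 migration and adhesion genes, 3 were higher in ALLO members and 1 lower. Itgb1, the integrin beta 1 gene, had 113 UMIs in 39 ALLO members and 12 in 3 SYN members, 3.20-fold higher (1.76 to 6.38). Itgal, which encodes the alpha chain of LFA-1, was 2.63-fold higher (1.26 to 6.37), but 1.78-fold higher without members that held Mki67 or Top2a, which ends its call. Ccr2, a receptor gene for inflammatory chemokines, was 5.097-fold higher (1.29 to 44.02). Of 13 S100, annexin and galectin genes 1 was higher, S100a4, 2.95-fold higher (1.47 to 6.68), and Lgals1 was 1.74-fold higher (1.41 to 2.16). Without members that held Mki67 or Top2a, S100a4 was 7.4996-fold higher and Lgals1 3.39-fold higher, and without the deepest cell of each library Lgals1 was 1.16-fold higher. Ccl4 was 3.23-fold higher (1.395 to 9.16). Fasl, Lamp1 and Gzmm were the 3 of 10 granule and killing genes that were higher. Their UMIs in ALLO and SYN members were 32 and 4 for Fasl, 23 and 1 for Lamp1, and 21 and 0 for Gzmm, whose ALLO level was at least 2.38-fold that of a floor of 3 UMIs over the SYN members. Cmc1 was likewise absent from SYN members and had 25 UMIs in 20 ALLO members, at least 2.83-fold that floor. Fasl was 2.72-fold higher (0.964 to 10.6), and 4.34-fold higher without members that held Ncr1, Tyrobp or Fcer1g. Ccr2, Cmc1 and Gzmm could not be compared without members that held Mki67 or Top2a. Of 17 T cell receptor signalling genes, 3 were higher, a share near that of all genes, and one of them was Cd5, an inhibitory co-receptor gene, 4.53-fold higher (1.44 to 22.9). Il7r had 47 UMIs in 13 ALLO members and 4 in 4 SYN members, 3.99-fold higher (1.46 to 15.3), but its log2 ratio turned to −0.088 when cells with a single effector UMI were added.

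Most of the largest differences rested on few cells. The histone genes Hist1h2ae, Hist1h1d and Hist1h1b, which are transcribed while DNA is copied, and the DNA topoisomerase gene Top2a were among the genes furthest apart with the higher level in ALLO. Hist1h2ae had 181 UMIs in 5 ALLO members and 1 in SYN, and Top2a had 44 UMIs in 8 and 0 in SYN. Of 11 cell cycle genes 6 were higher and 0 lower. Mki67 or Top2a was detected in 9 of 45 ALLO members, 20% (9.58 to 34.6%), and in 3 of 11 SYN members, 27.3% (6.02 to 61.0%), and both genes together in 5 and in 0. In sum-0 cells either gene was detected in 13 of 502 and 22 of 531. Without such members 128 genes were higher in ALLO, in place of 235, and the median log2 ratio of cell cycle genes over sum-0 cells in ALLO was −0.27, against 3.08 with them. That fall was built in, since Mki67 and Top2a are in that list and sum-0 cells that held them were kept. Of 4 NK cell markers tested, 1 was higher in ALLO members and 3 lower. The genes lower in ALLO were led by Tyrobp, with 1 UMI in ALLO and 19 in SYN members, and Fcer1g, with 5 and 16, all SYN UMIs in the 2 cells with Ncr1. Mif and Npm1, growth-associated genes, had 44 and 96 UMIs in ALLO and 67 and 95 in SYN members, but the deepest SYN cell held 55 and 67 of these, and without the deepest cell of each library Mif was 1.18-fold lower and Npm1 1.13-fold lower. Over all genes, 58 in place of 94 were then lower. Cd7 was 4.37-fold lower (2.71 to 7.12), with 46 UMIs in 7 SYN members, and 1.51-fold lower without members that held Mki67 or Top2a.

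**Figure D4:**
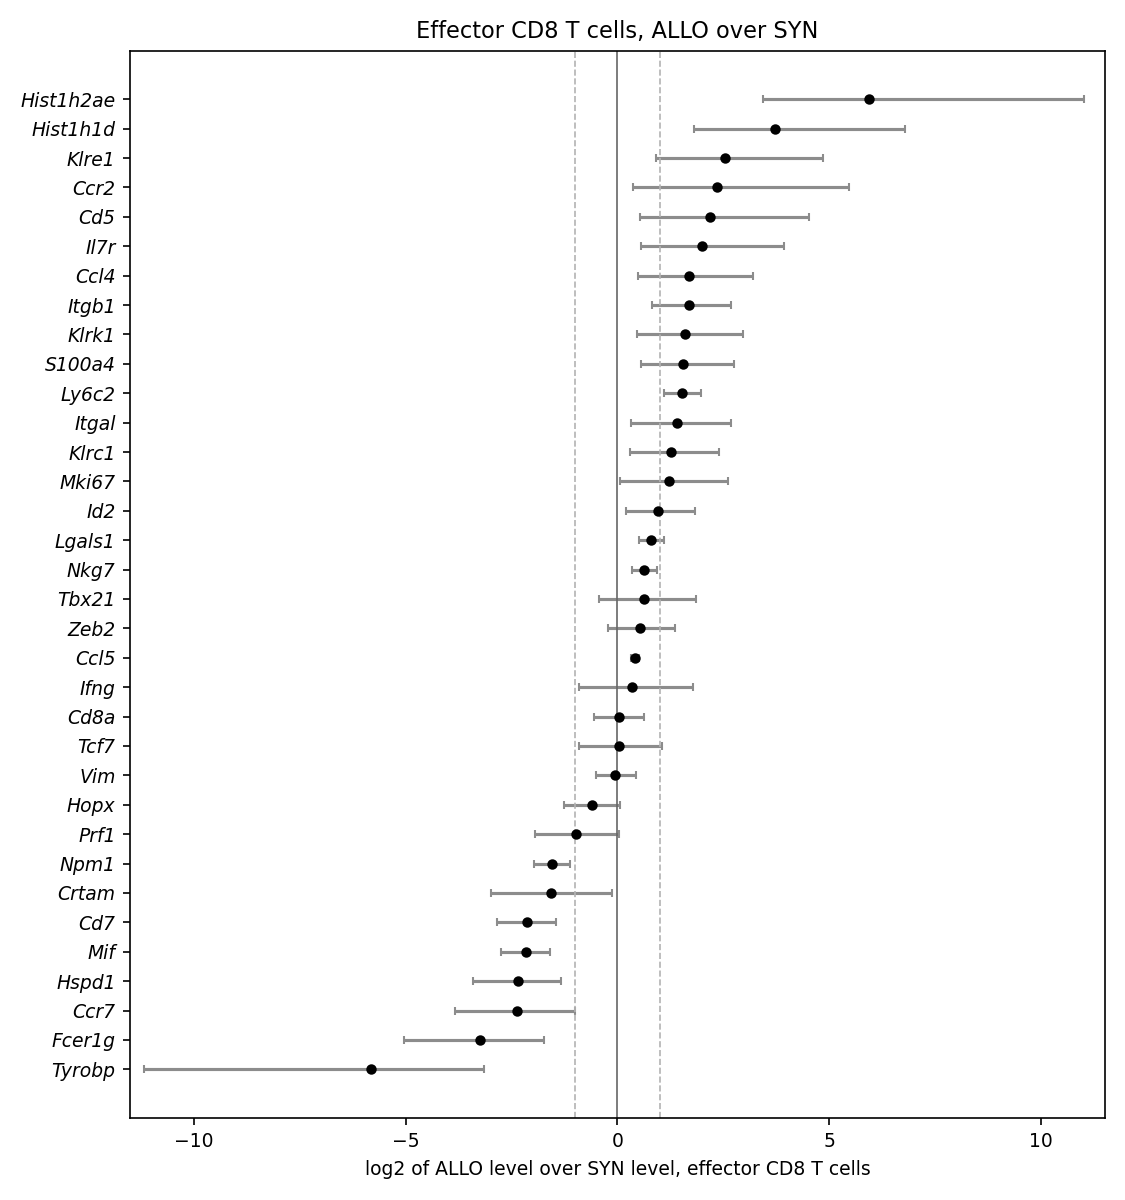
ALLO level over SYN level in members, on the log2 scale, for named genes, with 95% conditional intervals for counting error; dashed lines mark 2-fold. The points run from Hist1h2ae, high in 5 ALLO cells, to Tyrobp, high in 2 SYN cells, and Ccl5, Zeb2, Tbx21, Cd8a and Tcf7 lie within 2-fold.

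Within ALLO, members with and without Klrg1 UMIs differed in memory genes. The 22 members with Klrg1 had a median of 3151.5 UMIs and the 23 without it 2340. Il7r was at 21.6 CPM (2.61 to 77.9; 2 UMIs) with Klrg1 against 576 CPM (420.0 to 771; 45 UMIs) without it, a ratio of 0.0375 (0.004403 to 0.143). Tcf7 was at 43.2 CPM (11.8 to 110.5; 4 UMIs) against 448 CPM (312 to 623; 35 UMIs), a ratio of 0.0963 (0.0249 to 0.269). Gzma was at 7681 CPM against 1676, and Gzmb at 819.9 against 179. These 2 are a description only, since they count toward the rule, which a cell without Klrg1 UMIs must pass on the other 4 genes. Zeb2, at 550.2 against 333 CPM, and Ly6c2, at 2599.8 against 2559 CPM, were closer on both sides. These are cells of 1 library and no replicates. A cell without a Klrg1 UMI may express the gene below detection, and the deeper side holds the cells with it.

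Members with Cx3cr1 UMIs, 25 of the 45, had a median of 3235 UMIs, against 2501.5 in the other 20. Cxcr3, the chemokine receptor gene of early effectors and memory cells, had 2 UMIs in them against 15, a ratio of 0.114 (0.0126 to 0.4896). The 35 members with Gzma UMIs, at a median depth of 3049 UMIs against 3002.5 in the other 10, had Tcf7 at 131 CPM against 628 without Gzma, and S100a6 at 1077 against 2633 CPM. SYN, with 11 members, was not divided in this way.

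The receptor chains of the members were read from variable segment UMIs, since the 5′ kit captures that end of the transcript. A cell was assigned the beta segment with the most UMIs, without a tie, which was possible for 42 ALLO and 10 SYN members. In ALLO, Trbv31 was assigned in 10 cells, 23.8% (12.1 to 39.5%), against 3.44% (1.98 to 5.53%) of 465 sum-0 cells. Trbv17 was assigned in 9, 21.4% (10.3 to 36.8%), against 1.94% (0.889 to 3.64%). In SYN sum-0 cells the shares were 3.37% for Trbv31 and 2.53% for Trbv17. Trbv3 followed in ALLO members with 6 cells, 14.3% (5.43 to 28.5%), against 8.39% (6.03 to 11.3%) of sum-0 cells, and Trbv12-1 and Trbv12-2, close copies whose reads may be split, with 5 and 4. The 10 SYN members were spread over 7 beta segments, at most 2 cells in each, and Trbv31 and Trbv3 were not among them. With cells that held UMIs of other lineages left out, the Trbv17 share of ALLO members was 12.1%.

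Both chains could be assigned in 19 ALLO members. Trbv31 with Trav6-2 was found in 4 of them and Trbv3 with Trav8-1 in 4 others. Neither pair was found among 293 ALLO sum-0 cells with both chains, and among 319 SYN sum-0 cells they were found in 0 and 1. Over any ALLO barcode with a Cd3 UMI within the limits, 9 held a UMI of both Trbv31 and Trav6-2, 6 of them members, and 10 held both Trbv3 and Trav8-1, 5 of them members. In SYN 1 and 5 such barcodes were found, none of them a member. Pairs of segments also recurred outside the class, since 84 of the 293 ALLO sum-0 cells shared their pair with another cell, at most 3 cells to a pair. In SYN sum-0 cells 145 of 319 did, with up to 4 cells to a pair, and among CD4 T cells pairs of up to 5 cells in ALLO and 6 in SYN were seen. No junction sequence was used, so cells with the same segments are not shown to be 1 clone.

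Members grouped by beta segment had different levels of some genes, described here for groups of 6 to 10 cells. Gzma, Klrg1, Cx3cr1 and Gzmb count toward the rule, so their levels are a description only. The 10 Trbv31 cells had Gzma at 8804 CPM, Klrg1 at 952 and Cx3cr1 at 654, against 4316, 204 and 366 CPM in the 9 Trbv17 cells. Klrc1, which the rule did not use, was at 29.7 CPM (0.753 to 166) in Trbv31 cells, from 1 UMI. It was at 814 (497 to 1258) in Trbv17 cells and 747 (492 to 1086) in Trbv3 cells. Ly6c2 was at 892 CPM in Trbv31 cells, 3176 in Trbv17, 3069.9 in Trbv3 and 2574 in Trbv12-1 or Trbv12-2 cells. The 6 Trbv3 cells held 39 of the 48 Mki67 UMIs of ALLO members, in 3 cells. They had Gzmb at 1162 CPM, with 24 of 42 UMIs in 1 cell, and Il7r at 0. They were the deepest of these groups, at a median of 5760 UMIs, against 3034.5 in Trbv31, 2372 in Trbv17 and 3049 in Trbv12-1 or Trbv12-2 cells. Il7r was at 792 CPM in Trbv12-1 or Trbv12-2 cells, from 24 UMIs in 6 of 9 cells.

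**Figure D5:**
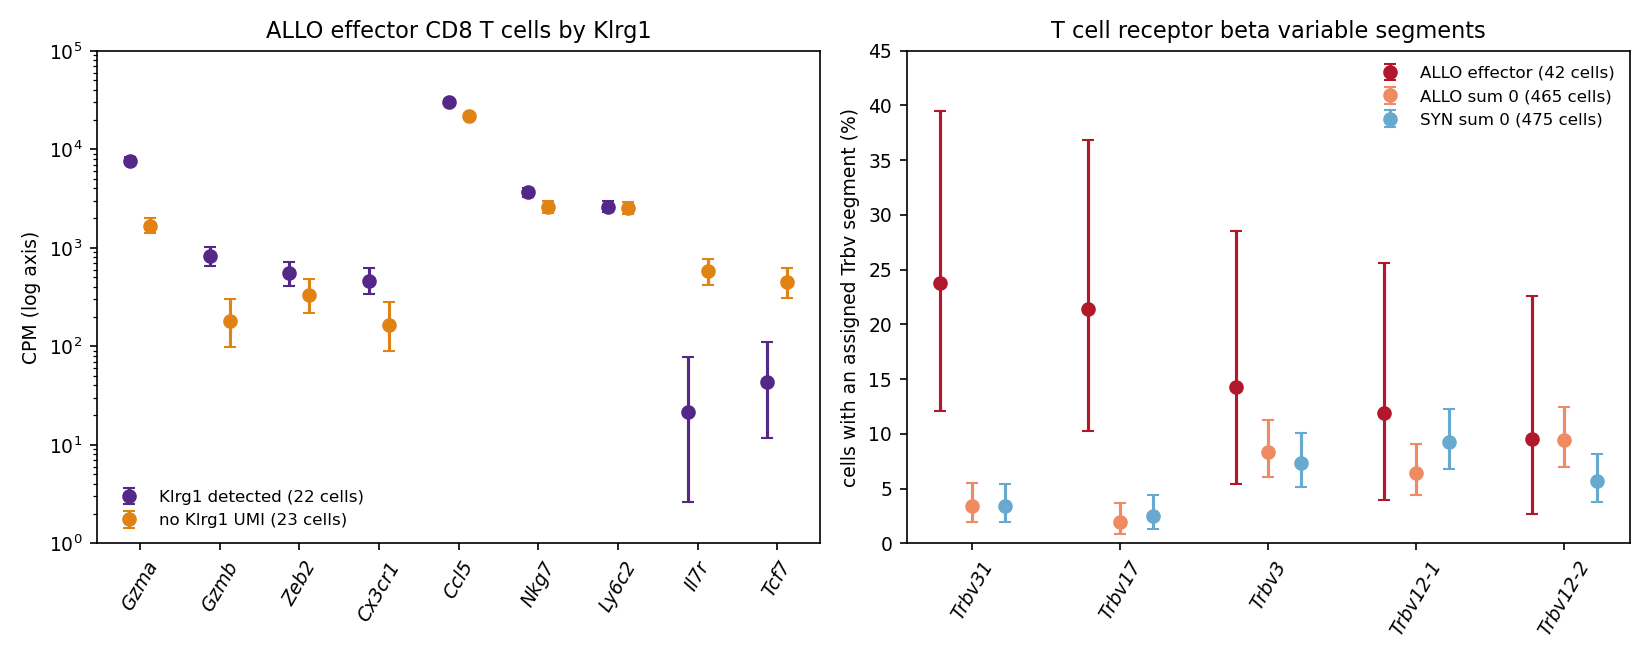
Left, CPM of named genes on a log axis in ALLO members with (purple) and without (orange) Klrg1 UMIs, with exact Poisson intervals. Right, share of cells assigned each beta segment in ALLO members, ALLO sum-0 cells and SYN sum-0 cells, with Clopper-Pearson intervals. Il7r and Tcf7 are lower in cells with Klrg1, and the Trbv31 and Trbv17 intervals of members lie above those of sum-0 cells.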

How the data were processed

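Spleen cells were profiled in 2 libraries, grouped by the sample titles. The authors deposited raw UMI counts for each gene in each barcode, not normalized. Cell Ranger 6.0.2 made them, per the file headers. FastQC and the genome build mm10 appear in the submitters' processing notes, and the sources used here do not give the annotation release. Gates were applied to these counts, UMIs were summed by class and library, and CPM, exact Poisson intervals, conditional ratio intervals and Clopper-Pearson intervals were computed with scipy 1.17.1 and numpy 2.4.6, after a test on simulated data. A ratio against 0 UMIs used a floor of 3. Thinning drew 1000 UMIs per cell.

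The members, gene lists and naming rule were chosen with earlier results of these data known. Named genes are list members and, for each comparison, the 12 highest and 12 lowest genes by the bound of the ratio interval nearest to 1, leaving out receptor segments and mitochondrial, ribosomal protein and predicted genes. Klrg1 splits and receptor groups were described after their values were seen. Scrublet (scanpy 1.11.5) marked 0 of 10744 ALLO and 2 of 17459 SYN barcodes as doublets at its automatic threshold and so gave no usable call; doublets were kept, and leaving out the highest 5% of scores was an alternative. Some items are not reported here.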

Additional observations from a re-analysis of the deposited data

How the results depend on the processing

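The 7 summary results were recomputed under 11 alternatives chosen at the start and 5 chosen after seeing the data. Of these values, 21 moved beyond the interval of the first value, or beyond 1.5 times of it for counts. Only the ratio of member shares could turn over, since counts were labelled as the same or moved, and it did not. Alternatives that leave the cells of a comparison as they are cannot move its value and say nothing of its stability. The ALLO over SYN ratio of member shares was 9.17 with cells thinned to 1000 UMIs before the gate, from 28 and 3 members. That thinning left 34 genes higher and 23 lower between ALLO and SYN, 109 and 3 against sum-0 cells and 11 and 8 against NK cells, from fewer genes tested. With at least 50 UMIs per gene these counts were 41 and 10 between libraries, 174 higher against sum-0 cells, and 24 and 169 against NK cells. Without the cell that held most of a gene's UMIs, 40 genes were lower in ALLO and 158 lower than in NK cells. Members with at least 1 effector UMI gave 171 genes higher than sum-0 cells. Scaling without ribosomal, mitochondrial and segment genes gave 131 higher and 140 lower against sum-0 cells, the mean of each cell's own CPM 123 lower, and leaving out members with Mki67 or Top2a 34 lower, with 128 genes higher in ALLO. Without the deepest member of each library 58 genes were lower in ALLO. Single genes and lists were counted as turned over only where the first value was at least 2-fold from equal. Of 225 single genes and lists, 6 values turned over: Il7r between libraries (−0.088, at least 1 effector UMI), Dapl1 and Irf8 in SYN after thinning (0.99 and 1.41), Klre1 in SYN without the highest Scrublet scores (−0.38), and Vim in SYN (−0.24) and the cell cycle median in ALLO (−0.27) without dividing members. The cell cycle median was bound to fall, since Mki67 and Top2a, which marked those members, are in that list. Except where an alternative tests fewer genes or cells, the cause was not tested. The automatic Scrublet threshold was not run as an alternative, since it marked under 0.5% of barcodes. No paired analysis was possible because each group is 1 library. The 11 SYN members and their 58054 UMIs leave most genes untested between libraries, and with 1 library per group no depth would give a replicate check.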

Other observations

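Other gene groups were described between members and sum-0 cells. Of 17 immediate early genes 1 was higher in both libraries, Dusp5, and of 12 NF-kB response genes 2 were, Bcl2a1b and Tnfaip3, with 0 lower in either list. Of 16 type I interferon-induced genes 1 was higher, Irf7, and of 9 BCL2 family genes 1 was higher, Bak1, and 1 lower, Bcl2, a survival gene, at 99.5 and 86.1 CPM in members against 210.3 and 194 CPM in sum-0 cells. Of 18 actin and cytoskeleton genes 2 were higher, Lsp1 and Myo1f. These counts stand beside 4.33% of all genes higher and 0.841% lower. Scaled without ribosomal, mitochondrial and segment genes, most of these calls were lost: 0 immediate early genes were higher and 1 lower, 1 NF-kB gene was higher and 1 lower, 0 interferon-induced and 0 actin and cytoskeleton genes were called, and 0 BCL2 family genes were higher and 2 lower.

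Of 13 genes of inhibitory receptors and Tox, 0 had 20 UMIs over the members of both libraries, so exhaustion genes could not be compared between ALLO and SYN at this depth. Against NK cells, 5 of 12 NF-kB response genes were lower in members and 0 higher, beside 5.01% of all genes, and 2 were lower by the mean of each cell's own CPM. The B cell markers summed to 492 and 568 CPM in ALLO and SYN members, against 7600.4 and 8399.8 CPM in NK cells, with up to 456 and 940 UMIs in 1 NK cell, and their part in this count was not tested.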
